A study of Mus musculus with 6 samples.

Results

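Peripheral myelin is the wrapped membrane of Schwann cells, and 8 genes that build or control it were followed in RNA of trigeminal ganglia, which hold the cell bodies of sensory neurons of the head, from mice. The genes were taken by name from the deposited expression table: Pmp22, Mbp, Mag, Cldn19, Ncmap, Prx, Drp2 and Egr2. Each had 1 row among the 13673 rows, all 8 passed the filter on low values, and 12238 genes were tested in all. The 6 libraries came from wild-type mice, 3 given CFA (complete Freund's adjuvant, killed mycobacteria in oil, used to cause inflammation) and 3 given saline, with tissue taken at day 3. Strain, age, sex and the place of injection are not stated in the labels. Single animals are not named there, and p-values reflect only how these libraries spread, which may in part be technical. Values are FPKM (fragments per kilobase and per size of the mapped library). A log2 fold change is the CFA mean of log2(FPKM + 1) less the saline mean, with the standard error (SE) of limma's moderated test, and adjusted p-values are Benjamini-Hochberg values over all tested genes.

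A myelinating Schwann cell wraps a single stretch of axon. In compact myelin the cytoplasm is squeezed out and the membranes are held together by proteins such as PMP22 and myelin basic protein, while uncompacted regions at the inner face, the paranodal loops and the outer surface carry their own adhesion and scaffold proteins. The transcription factor EGR2 (KROX20), acting with SOX10, switches the myelin programme on. Mbp and Mag are also expressed by oligodendrocytes, which myelinate the central nervous system, and the trigeminal root changes from peripheral to central myelin on its way to the brainstem. Pmp22, Prx, Drp2, Ncmap, Cldn19 and Egr2 are better known, among myelinating glia, from Schwann cells.

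None of the 8 genes was called at an adjusted p below 0.05 by limma, where 7 of the 12238 tested genes were called (0.0572%). At an unadjusted p below 0.05 stood 1 member, Mag, on the higher side. Of all tested genes 8.32% had such a p, and 5.37% had it on the higher side. Mag, which encodes myelin-associated glycoprotein, was higher in every CFA library than in any saline library, and Ncmap was lower in every CFA library. Over all tested genes the groups did not overlap in 14.5%. Of the members 4 lay on the higher and 4 on the lower side (51.4% and 48.6% of all tested genes), with a median log2 fold change of 0.025, beside 0.0052 over all tested genes. In bulk tissue, fewer cells of a type and less RNA per cell cannot be told apart.

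Promoter stretches are shown for 4 members. Of these, Mag and Ncmap have libraries that separate in opposite directions. Pmp22 and Cldn19 are the pair whose log2 values, relative to each gene's own mean, differed least over the libraries. Each stretch is the 250 bases before the most upstream start site in RefSeq (GRCm38.p6), written 5′ to 3′ on the strand of the gene. Capitals mark matches to GTGGGCG (an EGR motif), ACAANG (a SOX motif) or CATTCC (a TEAD motif), each searched on both strands and with no overlap between matches. RefSeq promoters were found for 6 of the 8 members.
Mag (chr7:30914923-30915172, minus strand): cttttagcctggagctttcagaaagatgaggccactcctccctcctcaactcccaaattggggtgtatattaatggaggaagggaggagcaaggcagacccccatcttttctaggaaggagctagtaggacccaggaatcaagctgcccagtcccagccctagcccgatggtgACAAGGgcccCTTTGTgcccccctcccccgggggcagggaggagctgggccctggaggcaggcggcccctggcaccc
Ncmap (chr4:135398228-135398477, minus strand): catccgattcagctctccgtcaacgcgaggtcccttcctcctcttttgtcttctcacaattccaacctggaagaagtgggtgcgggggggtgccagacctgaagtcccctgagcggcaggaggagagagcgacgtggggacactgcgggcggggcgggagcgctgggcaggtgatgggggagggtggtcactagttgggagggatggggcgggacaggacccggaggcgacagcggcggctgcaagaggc
Pmp22 (chr11:63128732-63128981, plus strand): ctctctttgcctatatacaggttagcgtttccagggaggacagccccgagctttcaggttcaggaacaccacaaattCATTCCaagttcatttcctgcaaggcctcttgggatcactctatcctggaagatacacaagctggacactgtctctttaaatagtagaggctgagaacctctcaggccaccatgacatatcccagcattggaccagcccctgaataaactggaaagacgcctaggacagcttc
Cldn19 (chr4:119255191-119255440, plus strand): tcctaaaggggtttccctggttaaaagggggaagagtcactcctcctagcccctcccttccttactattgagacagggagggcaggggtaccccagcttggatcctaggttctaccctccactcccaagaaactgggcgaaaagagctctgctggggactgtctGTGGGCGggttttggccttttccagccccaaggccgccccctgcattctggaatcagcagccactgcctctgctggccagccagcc
The Mag stretch held 2 SOX matches, ACAAGG at 77 to 72 and, on the reverse strand, CTTTGT at 67 to 62 bases before the start site. Over all 32851 promoter stretches of this length 36.3% held a SOX match. Pmp22 had a TEAD match at 173 to 168 bases and Cldn19 an EGR match at 86 to 80 bases before the start, motifs held by 12.6% and 7.02% of all stretches. In Ncmap none of these letters occurred. Of the stretches not printed, that of Prx held a TEAD match and that of Egr2 an EGR match. A match is a string of letters and does not show that a factor binds.

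Levels differed widely between the members. Pmp22 averaged 878 ± 94.0 FPKM over the 6 libraries (SD), 8.42 times the next gene, Prx, at 104 ± 23.8 FPKM. Mbp at 96.9 ± 9.09 FPKM was below Prx in 3 of 6 libraries, and Ncmap at 80.6 ± 23.1 FPKM was below Mbp in 5 of 6, so these 3 neighbours were not apart beyond their spread. A gap followed to Mag at 36.1 ± 10.1 FPKM, below Ncmap in every library by a factor of 2.23 in the means. Cldn19 averaged 24.2 ± 4.34 FPKM, Drp2 19.4 ± 13.9 FPKM and Egr2 14.1 ± 3.05 FPKM, with overlapping ranges from one to the next.

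Some features of the libraries bear on what follows. Summed markers of the pituitary, a gland that lies near the ganglia, ran from 233 to 2835 FPKM in CFA libraries and from 189 to 4798 FPKM in saline libraries, and the 5 tested pituitary genes all had a negative log2 fold change with no p below 0.05; Lhb, Pomc and Cga had the smallest p-values, with adjusted p of 0.789, 0.822 and 0.823. Mitochondrial transcripts made up 7.24% of the FPKM total in CFA replicate 3 and 10.6% to 13.7% in the other libraries. Saline replicate 3 held the highest value by at least 2-fold over the next library in 76 of 131 genes with such a peak. The labels name neurons and glia, and both were present: sensory neuron markers summed to between 4640 and 5400 FPKM with CFA and between 3963 and 4940 FPKM with saline, Schwann cell markers to between 2470 and 3063 FPKM with CFA and between 2139 and 2895 FPKM with saline. Among the neuron markers 7 of 10 were higher and none had a p below 0.05. Nefl (1167 ± 117 FPKM with CFA against 999.9 ± 62.4 FPKM with saline), Prph and Snap25 came first by p, with Snap25 on the lower side.

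Compact myelin is represented by Pmp22 and Mbp. Pmp22 encodes a tetraspan membrane protein whose gene dosage matters in peripheral nerve, since duplication and deletion of the human gene cause inherited neuropathies. The gene lies on chromosome 11 at 63128982 to 63159547 (GRCm38, plus strand). It was at 819, 765 and 911 FPKM in CFA replicates 1 to 3, against 1036, 899 and 838 FPKM in saline replicates 1 to 3. CFA replicate 3 lay above saline replicates 2 and 3, so the groups overlapped. The log2 fold change was −0.15 (SE 0.119, limma adjusted p = 0.727), and its 95% interval allowed anything from 0.74-fold to 1.10-fold.

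Mbp encodes myelin basic protein, which binds the cytoplasmic faces of the membrane together. It lies on chromosome 18 at 82475146 to 82585637. It stood at 99.2, 110.1 and 89.6 FPKM with CFA and at 99.6, 98.9 and 84.0 FPKM with saline. The lowest value of each group came from its replicate 3, and the groups overlapped almost fully. Of all 8 members it had the narrowest interval, a log2 fold change of 0.080 between −0.18 and 0.34 (SE 0.109, limma adjusted p = 0.832).

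Membrane adhesion and the paranodal loops are represented by Mag, Cldn19 and Ncmap. Mag encodes a sialic acid-binding adhesion protein of the innermost myelin layer that faces the axon, and lies on chromosome 7 at 30899176 to 30914873 (minus strand). It was at 46.8, 38.0 and 48.4 FPKM in CFA libraries, against 30.8, 29.9 and 22.8 FPKM in saline libraries. The lowest CFA library stood above the highest saline library. Its log2 fold change was 0.66 (SE 0.145), a ratio of means of 1.59, with a 95% interval of 1.24-fold to 2.01-fold. Ranked by p it was number 138 of the 12238 genes, and over all of them it did not pass (limma adjusted p = 0.266). With library quality weights, under which limma called 266 genes, Mag passed (adjusted p = 0.0365). Over the 17 alternative settings its adjusted p ran from 0.0365 to 0.760 and its log2 fold change from 0.46 to 0.76.

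Oligodendrocyte markers differed between the groups in the same direction as Mag. Among the CFA libraries they did not follow Mag, which was highest in replicate 3 (48.4 FPKM), where the summed markers were lowest (484 FPKM). Among the saline libraries both were lowest in replicate 3, Mag at 22.8 FPKM and the summed markers at 303 FPKM. All 16 markers of the list were higher with CFA, 13 of them without overlap of the groups (7.89% of all tested genes were higher without overlap), and their summed level was 484 to 545 FPKM in CFA libraries against 303 to 403 FPKM in saline libraries. Mog, a myelin protein of the central nervous system, was at 38.6 ± 3.04 FPKM with CFA and 24.2 ± 4.67 FPKM with saline (n = 3 each; log2 fold change 0.67, SE 0.150, limma adjusted p = 0.270). Mobp stood at 165 ± 21.2 FPKM with CFA against 124 ± 20.1 FPKM with saline and Hapln2 at 13.9 ± 0.729 FPKM with CFA against 8.97 ± 1.07 FPKM with saline. Both encode proteins of central myelin or its nodes. The lineage factors were at 4.12 ± 0.524 FPKM with CFA against 2.53 ± 0.389 FPKM with saline (Myrf) and 2.60 ± 0.439 FPKM with CFA against 1.68 ± 0.308 FPKM with saline (Olig2), and Opalin was at 2.14 ± 0.508 FPKM with CFA against 1.37 ± 0.713 FPKM with saline, with overlap of the groups for Opalin alone among these defining markers. None was listed at 0 in any library. Klk6, a serine protease gene, and Nkx6-2, a homeobox factor gene, had among the smallest p-values of the list together with Hapln2 (adjusted p = 0.145, 0.218 and 0.179), and no marker was called over all genes by limma.

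Within each library, Mag was set against Pmp22, the most abundant member, and against Mog. These ratios were chosen after the values were seen. Mag over Pmp22 was 0.0571, 0.0497 and 0.0531 in CFA libraries, against 0.0297, 0.0333 and 0.0272 in saline libraries. The ratio was higher in each CFA library than in any saline library, 1.77-fold in the means. Mag over Mog was 1.15, 0.952 and 1.38 in CFA libraries and 1.12, 1.14 and 1.21 in saline libraries. There the groups overlapped, and the means were 1.16 ± 0.213 with CFA and 1.16 ± 0.0475 with saline (SD, n = 3). With 3 libraries a side the smallest p of an exact permutation test is 0.1, and no test of these ratios is given. The part that central myelin has in the Mag values was not tested further.

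**Figure D1:**
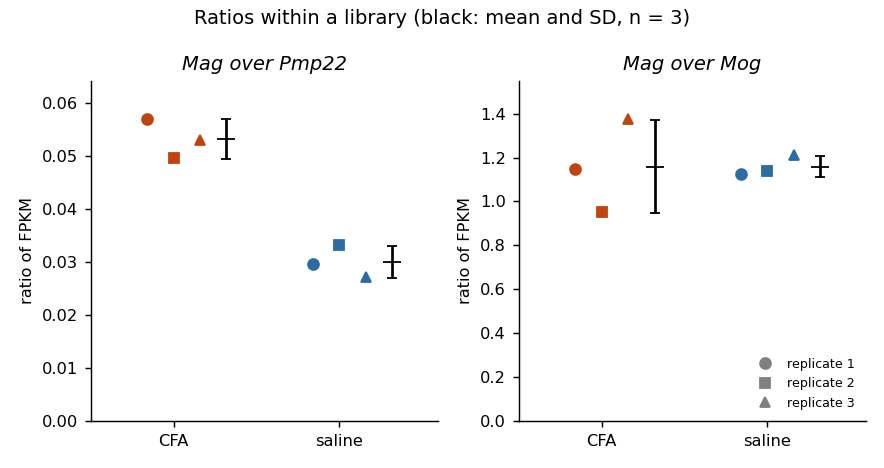
Ratio of Mag to Pmp22 (left) and of Mag to Mog (right) in FPKM within each library, 1 point per library with CFA left and saline right; black bars are mean ± SD (n = 3). Mag over Pmp22 lies between 0.0497 and 0.0571 with CFA, above all saline libraries, while Mag over Mog overlaps between the groups, with means of 1.16 in both.

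Mbp, the other member that oligodendrocytes express, did not keep pace with Mog. Mbp over Mog was 2.43, 2.76 and 2.55 with CFA, against 3.64, 3.76 and 4.46 with saline. The groups did not overlap, and CFA was lower. Against Pmp22, the ratio of Mbp was 0.121 ± 0.0229 with CFA and 0.102 ± 0.00715 with saline, and the libraries of the groups overlapped.

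Cldn19 encodes claudin 19, a tight junction protein of the paranodal loops and mesaxons of Schwann cells, and lies on chromosome 4 at 119255414 to 119262438 (plus strand). Values were 23.1, 19.2 and 29.8 FPKM with CFA and 29.3, 22.2 and 21.7 FPKM with saline. The highest and the lowest of the 6 libraries were both CFA libraries. Its log2 fold change of −0.031 (SE 0.183, limma adjusted p = 0.973) had a 95% interval from 0.72-fold to 1.33-fold. An exon of the antisense gene Gm12927 overlaps it on the other strand, and the sources used here do not say whether counting used the strand.

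Ncmap encodes a small membrane protein of uncompacted peripheral myelin and lies on chromosome 4 at 135369576 to 135398227 (minus strand). It was at 69.1, 62.6 and 73.1 FPKM in CFA libraries, against 126.6, 78.1 and 74.3 FPKM in saline libraries. All CFA values lay below all saline values, by little for the nearest libraries, and saline replicate 1 stood far above the rest. Lower without overlap were 6.66% of all tested genes. Its log2 fold change was −0.40 (SE 0.204, limma adjusted p = 0.637), and −0.16 without saline replicate 1. Relative to Pmp22 in the same library, Ncmap was at 0.0844, 0.0819 and 0.0803 with CFA and at 0.122, 0.0869 and 0.0886 with saline. These ratios, too, were lower in each CFA library.

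**Figure D2:**
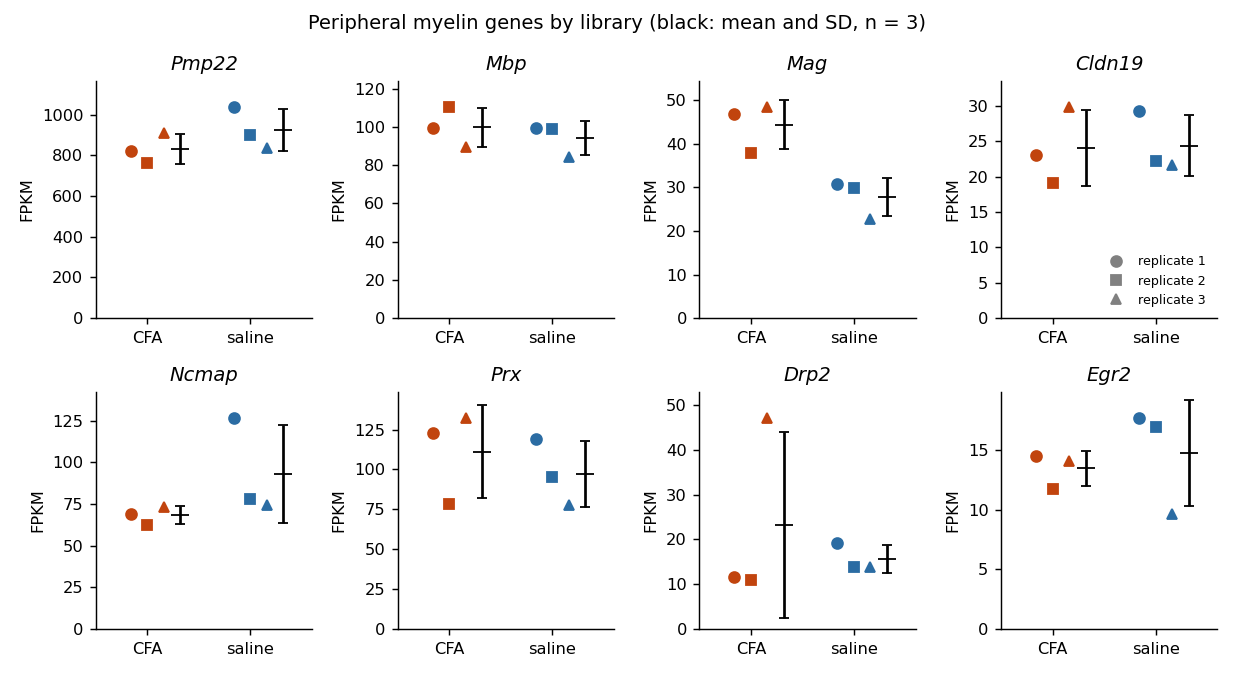
FPKM of each of the 8 myelin genes in each library, CFA left (red) and saline right (blue), with the replicate number shown by the symbol and the mean ± SD (n = 3) as a black bar; every axis starts at 0. The groups separate in Mag, where CFA is higher, and by little in Ncmap, where CFA is lower, and Drp2 stands out in CFA replicate 3 alone.

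The periaxin scaffold joins the outer Schwann cell membrane to the surrounding basal lamina. Prx encodes periaxin, a PDZ-domain protein that binds DRP2, and lies on chromosome 7 at 27499324 to 27520214 (plus strand). It was at 123, 78.1 and 132 FPKM with CFA and at 119, 95.6 and 77.4 FPKM with saline. Each group had high and low libraries, and the groups overlapped. The log2 fold change was 0.18 (SE 0.236, limma adjusted p = 0.830; 95% interval 0.76-fold to 1.67-fold), and −0.12 without both libraries numbered 3. The antisense gene Gm15541 overlaps an exon of Prx on the other strand. Against Pmp22, Prx stood at 0.133 ± 0.0264 with CFA and 0.105 ± 0.0114 with saline, with overlap of the libraries.

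Drp2 encodes dystrophin-related protein 2, which links periaxin to dystroglycan, and lies on the X chromosome at 134404551 to 134456573 (plus strand). It was at 11.6, 10.8 and 47.1 FPKM in CFA libraries and at 19.1, 13.7 and 13.9 FPKM in saline libraries. CFA replicate 3 was 2.46 times the next library, and the other 2 CFA libraries were the lowest of the 6. Its log2 fold change of 0.23 (SE 0.528, limma adjusted p = 0.909) became −0.42 without CFA replicate 3 (adjusted p = 0.805; 0.661 to 0.993 over all alternatives). In that library 6 of the 12238 tested genes, Drp2 among them, exceeded the next library by as large a factor. Mag, Cldn19 and Prx, the partner of Drp2, were also highest there, by smaller margins. Whether the high Drp2 value comes from the tissue or from the quantification was not tested.

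Egr2 encodes the transcription factor that maintains peripheral myelin gene expression, and is also an activity-induced gene in neurons and immune cells. It lies on chromosome 10 at 67535475 to 67542188 (plus strand). Values were 14.5, 11.8 and 14.1 FPKM with CFA and 17.7, 17.0 and 9.64 FPKM with saline. Saline replicate 3 was the lowest of all 6, and the other 2 saline libraries were the highest. The log2 fold change was −0.085 (SE 0.224, limma adjusted p = 0.927), with an interval from 0.65-fold to 1.37-fold. Without saline replicate 3 it was −0.35 (adjusted p = 0.680).

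**Figure D3:**
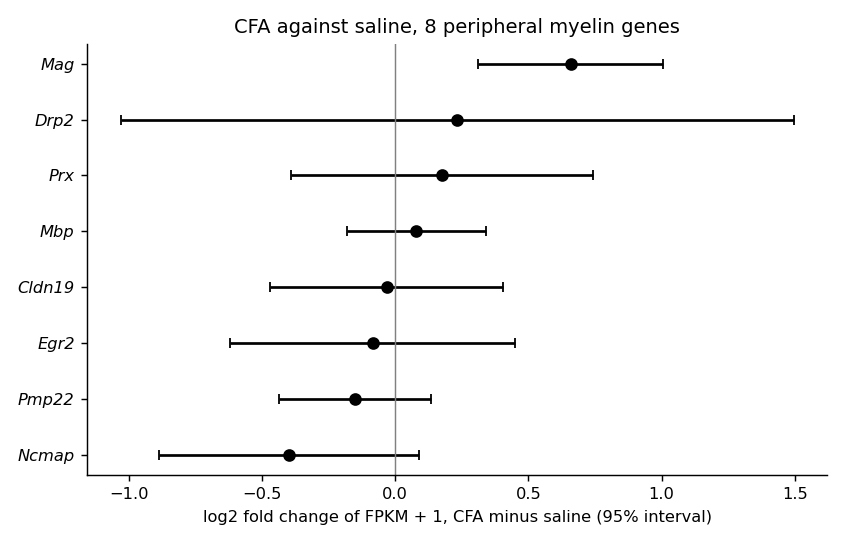
Log2 fold change of FPKM + 1 for the 8 genes, CFA minus saline, with limma's 95% confidence interval, ordered by value. The interval of Mag, 0.31 to 1.01, lies above 0 before adjustment for the number of genes tested; the other 7 intervals cross 0.

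The widest range within a group exceeded the difference between the group means for every member but Mag. CFA replicate 3 had the highest value for 4 members and saline replicate 1 for 3, while CFA replicate 2 and saline replicate 3 each had the lowest value for 4. Relative to each gene's own mean over the 6 libraries, the 8 genes had a median of 0.18 in CFA replicate 3, −0.26 in CFA replicate 2, 0.23 in saline replicate 1 and −0.23 in saline replicate 3 on the log2 scale. Drp2, at 1.43 in CFA replicate 3, raised the average of that library to 0.31. Every member was below its mean in saline replicate 3. Mbp departed from this order, with its highest value in CFA replicate 2 (0.19 above its mean) and a value below its mean in CFA replicate 3 (−0.11). Mag had its 3 highest values in the CFA libraries, and Ncmap its 3 highest in the saline libraries.

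**Figure D4:**
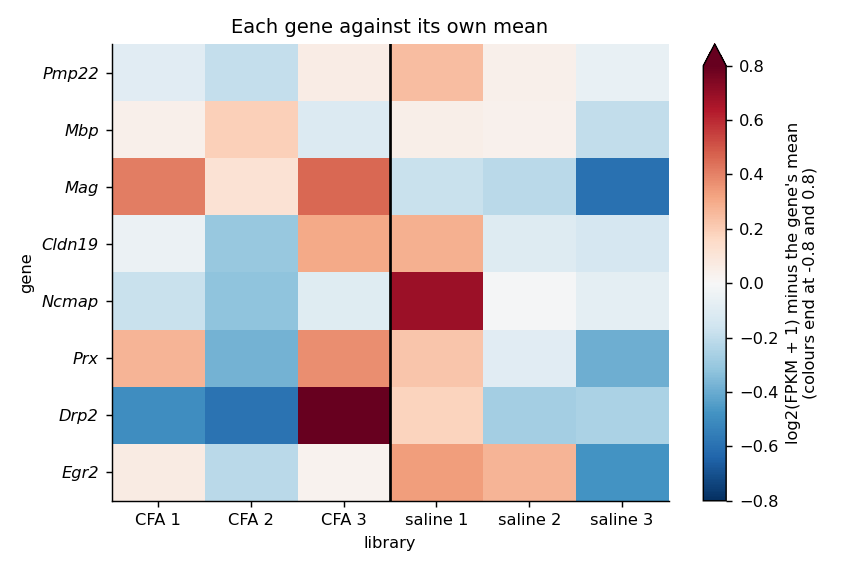
Log2(FPKM + 1) of each myelin gene minus its own mean over the 6 libraries, with genes in rows and libraries in columns, CFA left of the line and saline right of it; red is above and blue below the mean. CFA replicate 3 and saline replicate 1 are high for most genes (medians of 0.18 and 0.23), and Mag is the one row with all CFA libraries above and all saline libraries below its mean.

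Likeness between 2 genes was measured as the root mean square difference of their centred log2 values over the 6 libraries. By that measure Pmp22 and Cldn19, both of the PMP22 and claudin superfamily of tetraspan proteins, were the closest pair of members (0.131), followed by Cldn19 and Prx (0.173) and Pmp22 and Ncmap (0.202). Mag was nearest to Prx (0.286). Drp2 was far from every member, at 0.517 or more, and its value in CFA replicate 3 lay 1.43 above its mean. The measure counts the size of deviations as well as their order, so genes that vary little tend to lie close. It does not show that Drp2 ran in another order over the libraries. Outside the members, the genes closest to the members' mean profile were Sema3b (0.0302), a secreted semaphorin, Rtkn (0.0423), Dpysl4 (0.0455), Vwa1 (0.0464) and Mok (0.0466), where the median over all tested genes was 0.251. Sema3b was at 32.1, 27.9 and 41.8 FPKM with CFA and at 39.8, 31.0 and 27.2 FPKM with saline.

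The other genes of the myelin sheath were measured for comparison, in a list of 20. None was called by limma, 9 were higher and 11 lower, and the median log2 fold change was −0.0085. Gjb1, the connexin 32 gene, was at 24.3 ± 1.10 FPKM with CFA and 18.3 ± 1.74 FPKM with saline (log2 fold change 0.39, SE 0.0896, limma adjusted p = 0.278). Gjb1, like Mag, had no overlap between groups. Art3 was lower, at 16.9 ± 1.20 FPKM with CFA against 21.1 ± 2.95 FPKM with saline. In this list 4 of 20 genes were higher without overlap and 0 lower without overlap, where 7.89% and 6.66% of all tested genes were.

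Among 15 tested factors that act with or before Egr2, 10 were higher and 5 lower, with a median of 0.044 and none called by limma. Pou3f1 (OCT6), the factor that precedes Egr2 in development, was at 5.27 ± 0.610 FPKM with CFA against 3.72 ± 0.915 FPKM with saline (log2 fold change 0.42 with SE 0.156; adjusted p = 0.574). Tead1, the DNA-binding partner of YAP and TAZ, differed by 0.86 on the log2 scale (SE 0.402, adjusted p = 0.621), with values of 3.39, 3.35 and 3.89 FPKM under CFA and a wide spread of 0.343, 3.50 and 1.56 FPKM under saline. Srebf2, a regulator of cholesterol synthesis, was at 24.8 ± 2.46 FPKM with CFA against 21.8 ± 1.26 FPKM with saline. Sox10 itself was at 38.5, 36.0 and 46.2 FPKM with CFA and 46.6, 36.3 and 34.5 FPKM with saline, and overlapped.

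The signals that drive myelination gave 6 higher and 10 lower of 16 genes, a median of −0.025 and no call by limma. Igf1r, a growth factor receptor gene, was at 7.10 ± 0.158 FPKM with CFA and 9.60 ± 1.15 FPKM with saline (log2 fold change −0.38, adjusted p = 0.380), without overlap. Erbb3, the neuregulin receptor of Schwann cells, stood at 12.3 ± 0.979 FPKM with CFA against 13.8 ± 0.635 FPKM with saline and the laminin receptor subunit Itgb4 at 8.69 ± 0.885 FPKM with CFA against 7.18 ± 0.909 FPKM with saline. In the dystroglycan complex list, which holds partners and relatives of Drp2, 9 of 11 genes were lower with a median of −0.040. Of all tested genes 48.6% were lower, and none of the 11 was called by limma. Sntb1 (5.10 ± 0.415 FPKM with CFA against 6.05 ± 0.338 FPKM with saline) and Sgcb (30.7 ± 0.969 FPKM with CFA against 32.9 ± 1.32 FPKM with saline) were among the genes with the smallest p-values, with adjusted p of 0.602 and 0.710.

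Genes that rise when Schwann cells leave the myelinating state were not called by limma in either direction. Their values are of whole ganglion RNA, which also held neuron transcripts, and are not a reading of Schwann cells alone. Of 13 tested genes 5 were higher and 8 lower, with a median of −0.052. Jun, the main repair factor, was at 42.9, 39.8 and 42.1 FPKM with CFA and 45.2, 45.7 and 36.8 FPKM with saline. Olig1 was higher (13.3 ± 0.510 FPKM with CFA against 8.71 ± 2.37 FPKM with saline, adjusted p = 0.485) and is also a marker of oligodendrocytes. Shh (6.98 ± 0.600 FPKM with CFA against 9.16 ± 1.08 FPKM with saline, limma adjusted p = 0.507) was lower in every CFA library. So was the adhesion gene L1cam (34.9 ± 0.487 FPKM with CFA against 38.8 ± 2.40 FPKM with saline). Gap43 (196 ± 22.2 FPKM with CFA against 168 ± 13.1 FPKM with saline) and Olig1 were higher in every CFA library. Thus 2 of the 13 genes were higher and 2 lower without overlap, beside 7.89% and 6.66% of all tested genes.

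Further lists around the myelin sheath gave no call by limma. Inherited demyelinating neuropathy genes split into 5 higher and 5 lower (median −0.0044), led by the myotubularin-related gene Sbf1 (7.33 ± 0.528 FPKM with CFA against 5.60 ± 0.393 FPKM with saline, adjusted p = 0.409), then Sbf2 and Mtmr2. Myelin lipid synthesis genes split into 8 higher and 6 lower (median 0.035), led by the sulfatide enzyme Gal3st1 (13.0 ± 1.95 FPKM with CFA against 10.04 ± 2.03 FPKM with saline, adjusted p = 0.621), Fasn and Cers2. Of 7 tested relatives of Pmp22 and Cldn19, 5 were higher (median 0.058), and Cldn11, the claudin of oligodendrocyte myelin, was at 73.4 ± 6.24 FPKM with CFA against 49.8 ± 6.81 FPKM with saline (adjusted p = 0.242), followed by Cldn5 and Cldn12. Cldn12 was at 0.0368 FPKM in saline replicate 1 and between 5.02 and 5.88 FPKM in the other libraries. Axonal partners at the node split into 5 higher and 5 lower (median 0.031), led by the juxtaparanodal potassium channel Kcna1 (9.38 ± 1.57 FPKM with CFA against 13.0 ± 1.63 FPKM with saline, adjusted p = 0.510), Cntnap2 and Sptbn4.

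Markers of the surrounding cells are given for the same libraries. Of 9 Schwann cell markers, which share genes with the sheath list, 5 were higher and 4 lower (median 0.028), and the adhesion gene Cdh19 was at 22.6 ± 2.85 FPKM with CFA against 33.3 ± 1.64 FPKM with saline (log2 fold change −0.54, adjusted p = 0.218). Astrocyte markers were higher in 6 of 6 (median 0.32; summed level 61.3 to 83.3 FPKM with CFA against 45.3 to 56.1 FPKM with saline), with Agt, Slc1a2 and Aldh1l1 first by p, and satellite glia share some of them. Satellite glia markers were higher in 5 of 6 (median 0.42), led by Fabp7 (233 ± 22.9 FPKM with CFA against 136 ± 10.5 FPKM with saline, adjusted p = 0.111), Kcnj10 and Gja1. Macrophage markers were higher in 6 of 8 (median 0.36), with C1qb, Aif1 and C1qa first by p (limma adjusted p = 0.132, 0.179 and 0.262). The 2 lower ones were Cd163 (1.41 ± 0.330 FPKM with CFA against 2.24 ± 0.579 FPKM with saline) and Lyz2. Lyz2 was at 396 FPKM in saline replicate 3 and between 52.5 and 84.8 FPKM in the other libraries. Connective tissue markers were higher in 4 of 6 (median 0.039). First by p were Col1a1 and Col3a1, both higher, then Dcn, which was lower (100.5 ± 10.6 FPKM with CFA against 111 ± 3.51 FPKM with saline). No marker of any of these lists was called by limma.

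**Figure D5:**
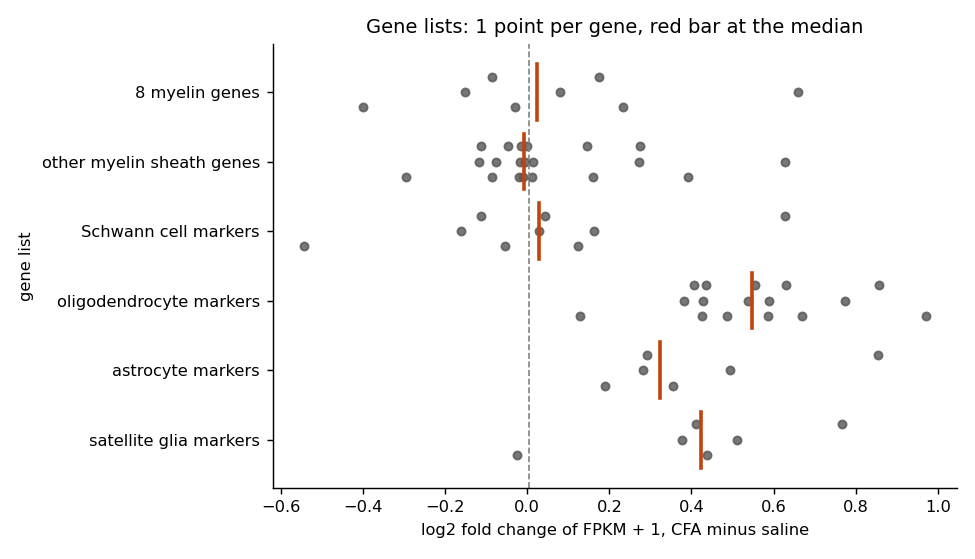
Log2 fold change of FPKM + 1 (CFA minus saline) with 1 point per gene and lists in rows; red bars are list medians and the dashed line is the median of all tested genes. The 8 myelin genes and the 20 other sheath genes centre near 0 (medians 0.025 and −0.0085), Mag lies at 0.66, and all 16 oligodendrocyte markers lie above 0 (median 0.55).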

How the data were processed

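RNA of 6 trigeminal ganglion libraries was analysed, 3 per group. Per the labels' protocols, poly(A) RNA was selected and libraries were made with a stranded KAPA kit. The deposited table holds FPKM computed by the authors, per the file headers. GRCm38 was the build, according to the submitters' processing notes. Aligner, quantifier, annotation release and strand setting: not given in the sources used here. Rows began at a larger group mean of 0.501 FPKM, and 1 line had been emptied for this work. Depth is unknown: values of genes with 1 transcript formed no whole-read steps (largest strength 0.201, where 1 means that all values fit), so no counting interval is given.

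Log2(FPKM + 1) was compared with limma 3.58.1 in R 4.3.3 (lmFit, eBayes with trend, no covariate, two-sided). The filter asked for an average of 1 FPKM or more, which left 12238 genes. The fit was first tested on simulated data. The fold scale understates changes of low genes. Exon overlaps came from GENCODE M21. Promoter sequences came from RefSeq.

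Members and lists were chosen with earlier results of these data known. Named in each list are its 3 genes with the smallest p and any called gene. The 6 defining oligodendrocyte markers and the 5 genes most like the members are also named. Sox10, Jun, Gap43, Cd163, Lyz2 and the ratios were added after their values were seen. Some genes that this rule takes are not reported here. Lists carry counts and medians, with no set test. Alternatives covered pseudocount, filter, scaling, variance model, weights, replicate number as a block, and libraries left out. Figures were drawn with matplotlib 3.10.9.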

Additional observations from a re-analysis of the deposited data

How the results depend on the processing

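No member was called in 16 of the 17 alternatives. Under library quality weights 1 member was called, Mag (log2 fold change 0.63), with 266 genes called in all, and Cldn19 turned to 0.044. Those calls included 6 of the oligodendrocyte markers and 4 of the macrophage markers. Under these weights 13 counts or list medians moved, by over 1.5-fold or beyond the spread between libraries, and not all are given here. The 7 calls over all genes became 13 with robust variances and 1 with the replicate block, and ran from 5 to 19 without any one library. Drp2 was at −0.49 and Prx at −0.12 without both libraries numbered 3. Without any one library the log2 fold change ran from −0.19 to 0.11 for Cldn19, from −0.35 to 0.060 for Egr2 and from −0.42 to 0.59 for Drp2. Prx ran from 0.023 (without saline replicate 3) to 0.41 (without CFA replicate 2), Mbp from 0.00050 (without saline replicate 3) to 0.154 (without CFA replicate 3), Pmp22 from −0.22 (without CFA replicate 3) to −0.066 (without saline replicate 1) and Ncmap from −0.54 (without saline replicate 3) to −0.16 (without saline replicate 1), none with an adjusted p below 0.05. The sign changed for Cldn19 without CFA replicate 2 or saline replicate 1, for Egr2 without CFA replicate 2 or saline replicates 1 or 2, and for Drp2 without CFA replicate 3. Among lists, the median of axonal partners was 0.14 with the filter at 5 FPKM and −0.044 with weights, that of the dystroglycan complex was −0.15 with weights and −0.12 to −0.011 without any one library, and 1 transcription factor was called with weights. The cause of these shifts was not tested. Under the remaining alternatives members kept their direction. The labels link same-numbered libraries of the groups by number only. Correlations of deviations were 0.0803, 0.111 and −0.0475 for same-numbered libraries and between −0.182 and 0.113 for the others. With 3 libraries per group these values cannot tell whether libraries were paired. With the replicate block Mag had a limma adjusted p of 0.535. Unknown depth limits the precision of every value.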
